A study of Mus musculus with 6 samples.

Results

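The Hox genes of the 4 mouse clusters were followed in sorted kidney cells by collecting the array probes whose RefSeq accession belongs to a gene named Hoxa, Hoxb, Hoxc or Hoxd with a number. This rule finds 39 of the 20887 named genes on the array, of which 38 are described here and 1 is not reported. The 38 genes have 42 probes, and 31 of them have a probe that was well above background in all 3 pools of at least 1 group and could be tested.

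MUT pools 1 to 3 held cells of Hoxb7cre+; R26RtdTomato; Bdkrb2f/f mice, in which the bradykinin B2 receptor gene was deleted in the lineage that expresses the Cre. WT pools 1 to 3 held cells of Hoxb7cre+; R26RtdTomato; Bdkrb2+/+ mice, so both groups carried the Hoxb7 Cre and the fluorescent reporter. All mice were of the C57BL/6 strain, and their kidneys were salt-stressed and taken at postnatal day 1. Cells positive for GFP and tdTomato were sorted as collecting duct cells derived from the ureteric bud, the epithelial outgrowth that branches into the collecting system. Hoxb7 is both the source of the Cre driver and 1 of the genes measured. The labels call the pools biological replicates and do not give the number of mice in a pool, so p-values measure the spread between these pools.

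Hox genes encode homeodomain transcription factors that set the identity of body regions along the head to tail axis. Within a cluster the genes stand in the order of their paralogue number, and those with low numbers are generally expressed earlier and nearer the head than those with high numbers. In the mouse kidney Hoxb7 marks the ureteric bud and its branches, while the Hox11 paralogues act in the mesenchyme around it, where they work with EYA1 and PAX2 to switch on Six2 and Gdnf; GDNF is the signal for bud branching.

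On every array a pool was labelled with Cy5 and co-hybridised with Cy3-labelled RNA from WT pool 1, which was therefore measured against itself once. Values are log2 ratios of a pool to WT pool 1 after loess, and a difference is the mean of the MUT pools minus the mean of the WT pools, with its SE from limma. A gene was called at a Benjamini-Hochberg adjusted p under 0.05 over all 29003 tested probes. The Cy5 signal of 27022 to 31314 of the 55681 probes per array was clearly over background by the scanner software's flag, and the small number of arrays limits the precision. The SD of the log2 ratios over tested probes was 0.50 to 0.65 on the MUT arrays and 0.15 to 0.25 on the WT arrays. The probe of Bdkrb2 itself failed the background criterion on all 6 arrays and so does not check the genotypes. Called genes were common in this comparison: 4778 of 14586 genes (32.8%) were called, 14.0% higher and 18.8% lower in MUT.

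The clusters differed in direction. Of the 31 tested Hox genes, 10 rose and 8 fell in MUT cells, which is 32.3% and 25.8% of them, against 14.0% and 18.8% of all tested genes. HoxC genes were higher (5 of 6 rose, median difference 1.36), and HoxB genes were lower (4 of 8 fell, median -0.45). HoxD genes were split, with 4 of 8 lower and 1 higher (median -0.53), and HoxA genes had 4 of 9 higher and 0 lower (median 0.22). The median over all tested genes was -0.02. For 22 of 31 Hox genes (71.0%) the ranges of the groups were apart, against 52.5% of all tested genes, with 10 higher and 12 lower in MUT, against backgrounds of 24.2% and 28.3%. Hoxa4, Hoxc5 and Hoxd12 passed the filter through the MUT pools alone, and 2 of these 3 are among the 10 that rose. Differences ran between -1.43 for Hoxd8 and 1.91 for Hoxc6. These directions are relative to the bulk of the probes: with the arrays set to their spike-in controls the falls of Hoxb4, Hoxb7, Hoxb8, Hoxb9 and Hoxd4 change sign, the HoxB and HoxD medians become 0.51 and 0.43, and no Hox gene is called lower.

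**Figure D1:**
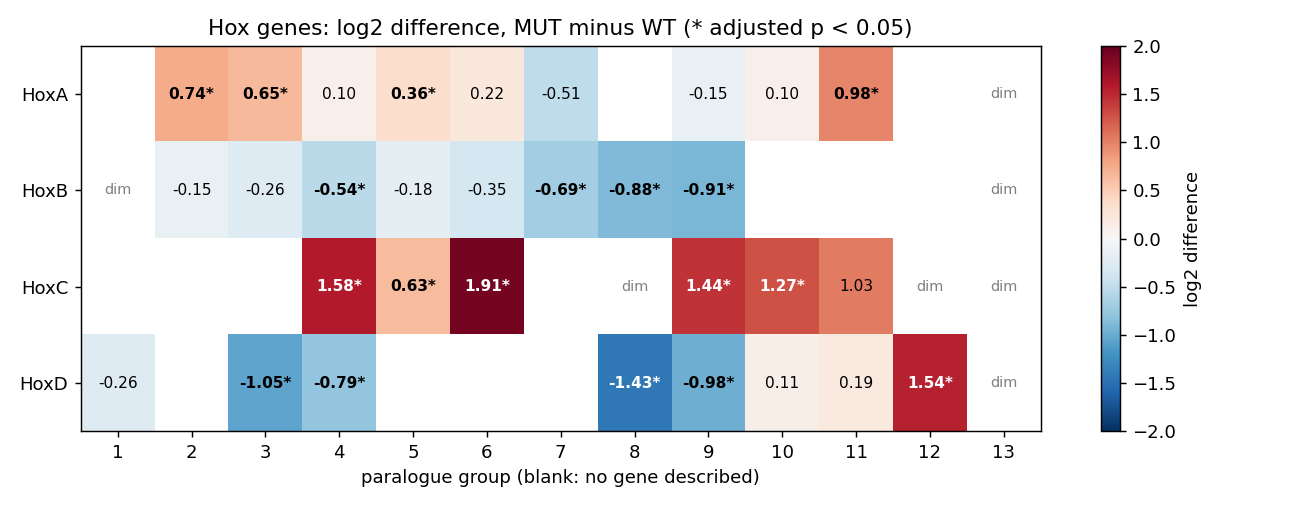
Log2 difference between MUT and WT pools (n = 3 each) of the Hox genes by cluster, down the page, and by paralogue group, across it; the colour gives the size, red for higher and blue for lower in MUT, and an asterisk marks an adjusted p under 0.05. The HoxC row is red at its tested genes and the HoxB row is blue at all 8 (differences that change sign with the spike-in controls), with "dim" for genes that were not tested.

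The HoxC cluster, on chromosome 15, held the largest rises. Hoxc6, which takes part in the patterning of the thoracic region, had log2 ratios of 1.54, 1.43 and 1.52 in MUT pools 1 to 3, against 0.27, -0.86 and -0.66 in WT pools 1 to 3. It rose by 1.91 ± 0.26 (SE), or 3.77-fold, with an adjusted p of 0.00198. The MUT values lay within a narrow band and far above all WT values, whereas WT pool 1 stood above the other WT pools. Hoxc4, at the 3′ end of the cluster, had log2 ratios of 1.81, 1.75 and 1.29 in MUT pools, against 0.20, 0.01 and -0.12 in WT pools. It rose by 1.58 ± 0.16 (3.00-fold, adjusted p = 0.000622), and its groups were far apart. The window around its RefSeq start is shown because Hoxc4 is among the genes that rose most. The letters TGACCT are in capitals, the reverse complement of the retinoic acid receptor core AGGTCA.
Hoxc4, GRCm38.p6, chr15:103034145-103034444, plus strand: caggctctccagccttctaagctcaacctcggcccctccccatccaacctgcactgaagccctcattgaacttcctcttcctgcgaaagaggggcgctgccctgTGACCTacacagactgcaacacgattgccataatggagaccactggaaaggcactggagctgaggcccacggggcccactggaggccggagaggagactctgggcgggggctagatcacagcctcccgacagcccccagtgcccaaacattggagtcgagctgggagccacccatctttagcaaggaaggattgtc

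Hoxc9, which acts in the thoracic spinal cord and rib-bearing region, had log2 ratios of 1.44, 1.22 and 0.86 in MUT pools, against -0.01, -0.36 and -0.44 in WT pools. It rose by 1.44 ± 0.18 (2.72-fold, adjusted p = 0.0012). Hoxc10, a gene of lumbar motor neurons and of the hindlimb, had log2 ratios of 0.81, 0.89 and 0.89 in MUT pools, against -0.35, -0.45 and -0.44 in WT pools. The pools of Hoxc10 were tight within both groups, and the gene rose by 1.27 ± 0.09 (2.42-fold, adjusted p = 0.000365). Hoxc5 had the smallest rise of the cluster, with log2 ratios of 0.56, 0.52 and 0.38 in MUT pools, against 0.06, -0.22 and -0.28 in WT pools. It rose by 0.63 ± 0.12 (1.55-fold, adjusted p = 0.0082), and was well above background on 2 of the 3 WT arrays.

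Hoxc11, the HoxC member of the Hox11 group, was not called. Its log2 ratios were -0.16, 1.32 and 1.39 in MUT pools, against 0.07, -0.28 and -0.35 in WT pools, with a difference of 1.03 ± 0.38 (adjusted p = 0.0844). MUT pools 2 and 3 stood high and MUT pool 1 lay among the WT pools. Hoxc8 was well above background in 2 MUT pools and 1 WT pool, with log2 ratios of -0.19, 0.48 and 0.25 in MUT pools, against 0.03, -0.15 and -0.16 in WT pools. Hoxc12 and Hoxc13, a regulator of hair growth, passed this criterion in no pool.

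The HoxB cluster, on chromosome 11, ran the other way: all 8 tested genes had negative differences, and the pools of 7 did not overlap, against 28.3% of all tested genes that lay apart and lower. Hoxb7, whose regulatory sequence drives the Cre of both groups, had log2 ratios of -0.72, -0.66 and -0.64 in MUT pools, against -0.09, 0.22 and -0.08 in WT pools. Hoxb7 fell by 0.69 on the log2 scale (SE 0.12, 1.61-fold, adjusted p = 0.00435), while with the spike-in controls after loess its difference was 0.26 and was not called. In these bulk pools fewer cells that express a gene and less of its RNA per cell cannot be told apart.

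Hoxb4, known in blood stem cells, had log2 ratios of -0.45, -0.44 and -0.40 in MUT pools, against 0.05, 0.19 and 0.10 in WT pools. It had the smallest SE of the called HoxB genes, with a difference of -0.54 ± 0.09 (1.46-fold, adjusted p = 0.00487), and changed sign to 0.41 with the spike-in controls after loess. Hoxb8 had log2 ratios of -0.91, -0.26 and -0.69 in MUT pools, against 0.43, 0.46 and -0.12 in WT pools. Its difference was -0.88 ± 0.21 (1.84-fold, adjusted p = 0.0193), and MUT pool 2 lay nearest to the WT range. The difference was 0.08 with the spike-in controls after loess. The Hoxb8 window is shown for its 3 motif matches: TTTATG, the CDX-type motif, in capitals on either strand, and ATTGATCA, the reverse complement of a HOX-PBX match to TGATNNAT.
Hoxb8, GRCm38.p6, chr11:96281655-96281954, plus strand: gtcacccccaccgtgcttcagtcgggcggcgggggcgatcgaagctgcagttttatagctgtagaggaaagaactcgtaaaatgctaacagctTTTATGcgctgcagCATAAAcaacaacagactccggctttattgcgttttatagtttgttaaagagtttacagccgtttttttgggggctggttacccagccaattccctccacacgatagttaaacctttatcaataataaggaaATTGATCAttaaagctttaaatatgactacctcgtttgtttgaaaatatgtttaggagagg

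Hoxb9, which shapes the thoracic skeleton, had log2 ratios of -1.0, -0.34 and -0.69 in MUT pools, against -0.04, 0.57 and 0.17 in WT pools. It had the largest fall of the cluster, at -0.91 ± 0.21 (1.88-fold, adjusted p = 0.0154), which was 0.04 with the spike-in controls after loess. The pools did not overlap, but were spread within both groups.

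Of the 4 HoxB genes that were tested but not called, Hoxb6 came nearest. Its log2 ratios were -0.53, -0.54 and -0.26 in MUT pools, against -0.22, 0.01 and -0.07 in WT pools, a difference of -0.35 ± 0.12 (adjusted p = 0.0683). Hoxb3 had log2 ratios of 0.04, -0.04 and -0.10 in MUT pools, against 0.21, 0.26 and 0.19 in WT pools. Its difference was -0.26 ± 0.09 (adjusted p = 0.0803), and its second probe gave -0.03 ± 0.17. The RefSeq spans of Hoxb3 and Hoxb4 overlap by 3372 bases, so their probes may share transcripts. Hoxb5, a gene of the branchial and shoulder region, differed by -0.18 ± 0.14 (adjusted p = 0.367) and Hoxb2, which acts in the hindbrain, by -0.15 ± 0.11 (adjusted p = 0.331). Hoxb1 and Hoxb13 failed the background criterion throughout, in both channels.

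In the HoxD cluster, on chromosome 2, the falls were confined to genes of paralogue groups 3 to 9 among those tested. Hoxd8 had log2 ratios of -1.49, -1.62 and -1.27 in MUT pools, against 0.06, -0.16 and 0.02 in WT pools. It fell by 1.43 on the log2 scale (SE 0.13, 2.70-fold, adjusted p = 0.000441), the largest fall of the 31 Hox genes, and came to -0.48, not called, with the spike-in controls after loess. All MUT values lay well below all WT values. The Hoxd8 window is shown as that of the gene with the largest fall, with AGGTCA in capitals.
Hoxd8, GRCm38.p6, chr2:74704365-74704664, plus strand: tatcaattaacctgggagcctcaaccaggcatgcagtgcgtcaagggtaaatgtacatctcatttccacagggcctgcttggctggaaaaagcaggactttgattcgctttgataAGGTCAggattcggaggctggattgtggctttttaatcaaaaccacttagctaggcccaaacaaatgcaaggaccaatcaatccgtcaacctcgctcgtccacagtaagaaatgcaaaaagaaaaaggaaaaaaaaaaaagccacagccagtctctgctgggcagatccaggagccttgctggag

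Hoxd3, a gene of the first neck vertebra, had log2 ratios of -0.84, -1.07 and -0.94 in MUT pools, against -0.02, 0.23 and 0.10 in WT pools. It fell by 1.05 on the log2 scale (SE 0.11, 2.08-fold, adjusted p = 0.000751), and the groups were far apart. With the spike-in controls after loess it came to -0.10 and was not called. In its window TTTATG and TGACCT, the reverse complement of AGGTCA, overlap in the capital letters, so they are not independent matches.
Hoxd3, GRCm38.p6, chr2:74711743-74712042, plus strand: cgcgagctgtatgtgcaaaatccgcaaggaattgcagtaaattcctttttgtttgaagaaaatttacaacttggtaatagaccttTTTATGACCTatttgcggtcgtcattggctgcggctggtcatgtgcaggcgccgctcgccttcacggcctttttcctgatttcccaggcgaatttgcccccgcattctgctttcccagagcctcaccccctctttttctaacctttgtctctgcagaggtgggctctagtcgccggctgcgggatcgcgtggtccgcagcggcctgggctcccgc

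Hoxd9, which acts in the forelimb and lumbar region, had log2 ratios of -1.39, -1.09 and -0.95 in MUT pools, against -0.29, -0.13 and -0.07 in WT pools. Its difference was -0.98 ± 0.14 (1.97-fold, adjusted p = 0.002), but after loess and spike-in centring it was -0.03 and not called. Hoxd4 had log2 ratios of -0.86, -0.12 and -0.04 in MUT pools, against 0.67, 0.57 and 0.12 in WT pools. MUT pool 1 was far below the other MUT pools, and WT pool 1, which was hybridised against itself, gave the highest WT ratio. The call of Hoxd4, at -0.79 ± 0.24 (adjusted p = 0.0436), is among the least secure: it was lost in 12 of 18 alternatives and changed sign to 0.16 with the spike-in controls after loess. RefSeq spans of Hoxd3 and Hoxd4 overlap by 7183 bases, so the probes of this pair may share transcripts. On the array of WT pool 1 against itself the ratios of the tested Hox genes ran between -0.35 for Hoxc10 and 0.67 for Hoxd4, with a median size of 0.0860.

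At the other end of the cluster Hoxd12, a gene of the developing limb, had log2 ratios of 1.83, 1.79 and 1.24 in MUT pools, against -0.06, 0.38 and -0.07 in WT pools. Hoxd12 was well above background on 1 of the 3 WT arrays and in Cy3 on 1 of 6 arrays, and it entered the test through the MUT pools alone. The fit called it at 1.54 ± 0.19 (adjusted p = 0.00135), a size that rests on dim WT and Cy3 signals. Hoxd10 differed by 0.11 ± 0.14 (adjusted p = 0.602) and Hoxd1 by -0.26 ± 0.13 (adjusted p = 0.184). Hoxd13 failed the background criterion on all arrays.

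Hoxd11 gave different answers from its 2 probes. The brighter had log2 ratios of -0.48, 0.79 and 0.82 in MUT pools, against 0.26, 0.16 and 0.12 in WT pools, a difference of 0.19 ± 0.32 (adjusted p = 0.691). The dimmer had 0.51, 0.27 and 0.38 in MUT pools, against -0.05, -0.25 and -0.31 in WT pools, a difference of 0.59 ± 0.12 (adjusted p = 0.0088). The brighter probe was low in MUT pool 1 alone, while the dimmer probe placed all 3 MUT pools above the WT pools. The RefSeq spans of Hoxd10 and Hoxd11 overlap by 2744 bases, so probes of this pair may also share transcripts.

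In the HoxA cluster, on chromosome 6, Hoxa2, Hoxa3, Hoxa5 and Hoxa11 rose. Their count of 4 became 1 without WT pool 3 or with slide row as a block, and the HoxA count was 7 with the spike-in controls. Hoxa11, the kidney gene of the mesenchyme, was measured by a probe with 10 spots per array, of which 8 to 10 were used, and had log2 ratios of 0.90, 1.21 and 1.01 in MUT pools, against 0.15, 0.14 and -0.12 in WT pools. It rose by 0.98 ± 0.13 (1.98-fold, adjusted p = 0.00149), with an SD over spots within an array of 0.0674 to 0.199. The antisense RNA Hoxa11os, which overlaps Hoxa11 by 568 bases in RefSeq, had 1.34, 1.10 and 1.15 in MUT pools, against 0.11, 0.18 and -0.06 in WT pools. It rose by 1.12 ± 0.11 (2.17-fold, adjusted p = 0.000624), and for both transcripts every MUT pool stood above every WT pool.

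Hoxa2, a gene of the hindbrain and the second pharyngeal arch, had log2 ratios of 0.96, 0.38 and 0.54 in MUT pools, against 0.00, 0.03 and -0.37 in WT pools. It rose by 0.74 ± 0.18 (1.67-fold, adjusted p = 0.0201), with no overlap. Hoxa3, of the third pharyngeal arch, had 0.33, 0.70 and 0.67 in MUT pools, against 0.07, -0.08 and -0.24 in WT pools. Hoxa3 rose by 0.65 ± 0.14 (1.57-fold, adjusted p = 0.0116), and its MUT values were all above the WT values.

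Hoxa5, which acts in lung and neck development, had 0.58, 0.46 and 0.46 in MUT pools, against 0.14, 0.15 and 0.14 in WT pools. It rose by 0.36 ± 0.09 (1.28-fold, adjusted p = 0.0259), a small step between tight groups that lost its call in 9 of 18 alternatives. The RefSeq span of Hoxa3 overlaps those of Hoxa4, Hoxa5 and Hoxa6, and the probes of these genes may share transcripts. Hoxa4 differed by 0.10 ± 0.12 (adjusted p = 0.549) and Hoxa10 by 0.10 ± 0.11 (adjusted p = 0.536). Neither probe of Hoxa13 passed the background criterion on an array.

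A further set of 3 HoxA genes had a low MUT pool 1. Hoxa6 had log2 ratios of -0.44, 0.78 and 0.69 in MUT pools, against 0.11, 0.22 and 0.07 in WT pools, a difference of 0.22 ± 0.30 (adjusted p = 0.627). Hoxa7 had -1.18, -0.28 and -0.33 in MUT pools, against 0.03, -0.27 and -0.02 in WT pools, a difference of -0.51 ± 0.24 (adjusted p = 0.151). Hoxa9, known in blood formation, had -0.90, 0.03 and 0.01 in MUT pools, against -0.09, -0.18 and -0.13 in WT pools, a difference of -0.15 ± 0.24 (adjusted p = 0.677).

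MUT pool 1 was more than 0.5 below the mean of MUT pools 2 and 3 in 6 of the 31 Hox genes (19.4%), against 8.0% of all tested genes. The 6 were Hoxc11, at a gap of -1.51, Hoxd11, Hoxa6, Hoxa9, Hoxa7 and Hoxd4. The gap was more than 0.5 above in 1 Hox gene (3.23%), against 5.44% of all tested genes. These counts use the brightest tested probe of each gene. The dimmer Hoxd11 probe had no low MUT pool 1 (0.51, against 0.27 and 0.38 in MUT pools 2 and 3). Second probes were low in MUT pool 1 for Hoxa9 (-0.88, against 0.08 and -0.08) and for Hoxb3 (-0.50, against 0.12 and 0.06). Without MUT pool 1, 9536 of all 29003 tested probes were called, against 7584 in the main setting. All 18 called Hox genes stayed called without this pool, and 4 others were called. Hoxc11 then differed by 1.54, Hoxd11 by 0.62 and Hoxa6 by 0.61, and Hoxb3 by -0.29. What sets MUT pool 1 apart in these genes was not tested.

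**Figure D2:**
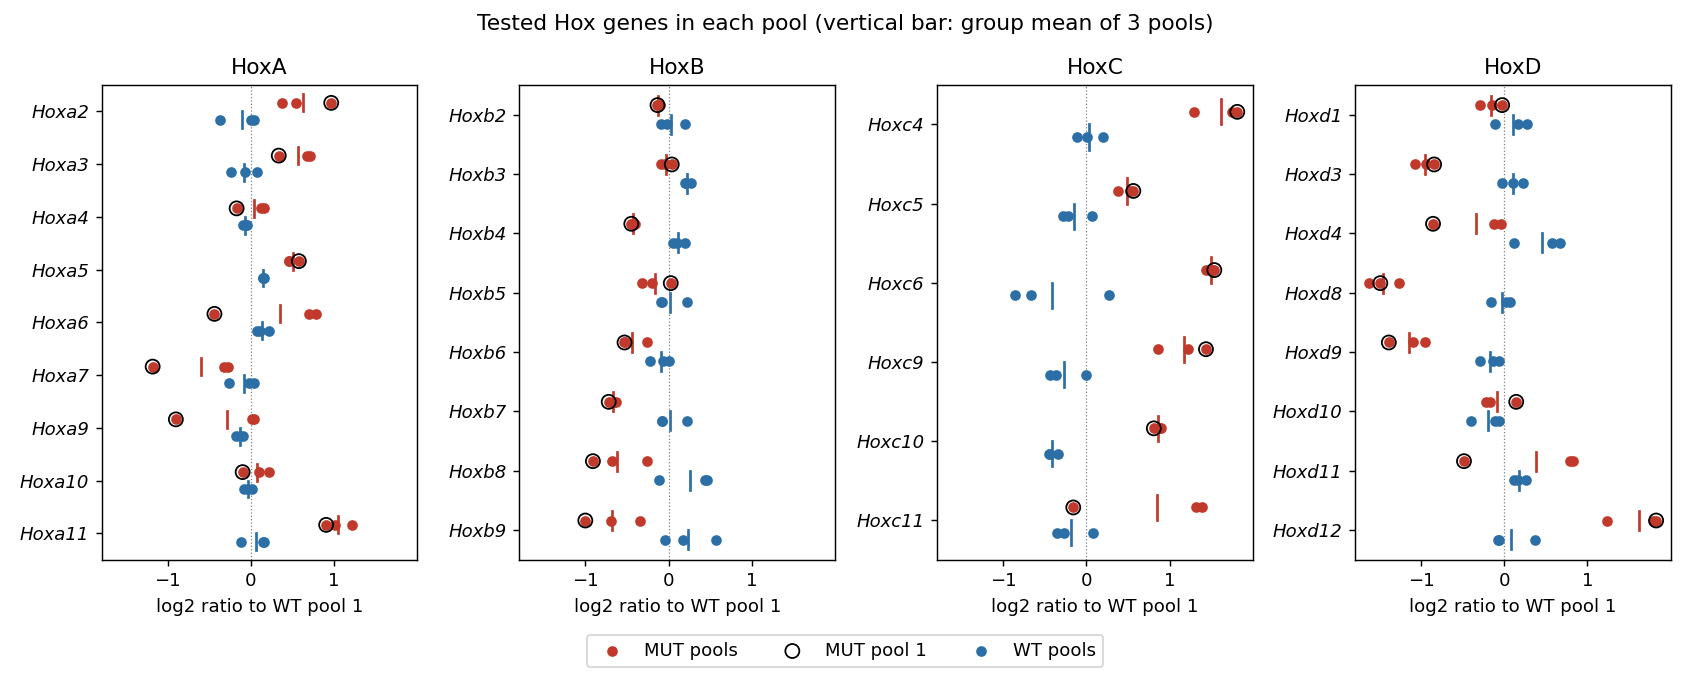
Log2 ratio to WT pool 1 of each tested Hox gene by pool, by cluster, with MUT pools above WT pools and a vertical bar at the mean of each group; a ring marks MUT pool 1. Hoxc4, Hoxc6, Hoxc9 and Hoxc10 keep a clear gap between groups. The ringed pool lies below the WT pools in Hoxd11 and Hoxa6 and among them in Hoxc11, while the other MUT pools of these genes lie above the WT pools. Each gene is shown by its brightest tested probe, and the dimmer Hoxd11 probe has no low MUT pool 1.

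The genes were also counted by position along the clusters, beside the 14.0% higher and 18.8% lower of all tested genes. Of the 13 tested genes of paralogue groups 1 to 5, 5 rose and 3 fell (median -0.15). Among these 13, Hoxc5, which rose, and Hoxa4, not called, passed the filter through the MUT pools alone. Among the 11 tested genes of groups 6 to 9, 2 rose (Hoxc6 and Hoxc9) and 5 fell (median -0.51). Groups 10 to 13 had 7 tested genes of 12 listed, of which 3 rose (Hoxa11, Hoxc10 and Hoxd12), 0 fell and all 7 had positive differences (median 0.98), Hoxd12 having passed the filter through the MUT pools alone. With the spike-in controls after loess, which add 0.95 to every difference, the medians of the first and middle groups are above 0. Position and cluster are not independent here, since groups 6 to 9 hold 4 HoxB genes and groups 10 to 13 none that was tested.

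Paralogues of 1 group can be set side by side on the same array, where a shift of the whole array leaves their gap unchanged. The direction of each gene does depend on the centring. Hoxb4 and Hoxb9 turn positive with the spike-in controls, and Hoxb6 was not called in the main setting. The log2 ratio of Hoxc6 minus that of Hoxb6 was 2.07, 1.97 and 1.78 in MUT pools, against 0.49, -0.87 and -0.59 in WT pools. That of Hoxc9 minus Hoxd9 was 2.82, 2.31 and 1.82 in MUT pools, against 0.28, -0.23 and -0.37 in WT pools. That of Hoxa3 minus Hoxd3 was 1.18, 1.78 and 1.60 in MUT pools, against 0.10, -0.31 and -0.34 in WT pools. In each of these pairs every MUT pool stood above every WT pool. For Hoxc4 minus Hoxb4 the mean of MUT pools was 2.13 above that of WT pools, and for Hoxc9 minus Hoxb9 it was 2.36 above. The HoxC median minus the HoxB median was 1.61, 1.60 and 1.42 in MUT pools, against 0.13, -0.54 and -0.35 in WT pools, so the clusters separated within each MUT array. These pairs were picked with the differences known and have no test.

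**Figure D3:**
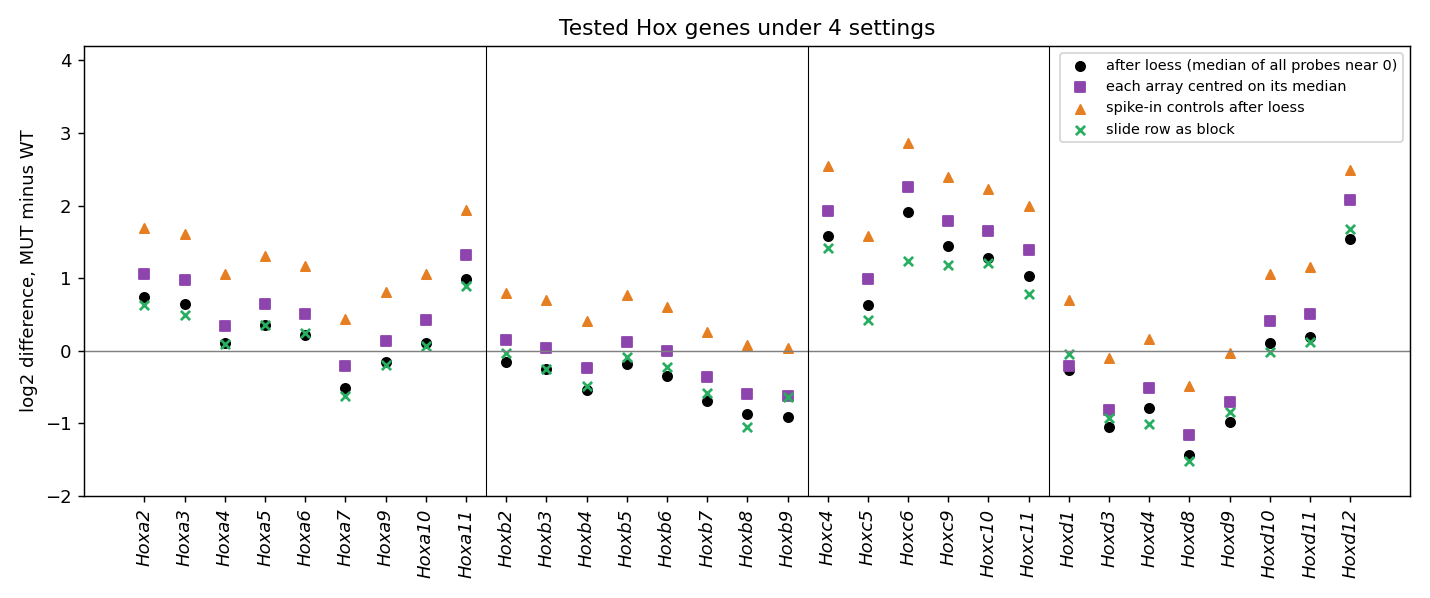
Log2 difference between MUT and WT pools (n = 3 each) of the tested Hox genes by cluster, with symbols for 4 settings: after loess, with each array centred on its median, with the arrays set to spike-in controls after loess, and with slide row as a block. All HoxC genes lie above 0 in all 4 settings, while the HoxB genes are below 0 after loess and above it with the spike-in controls.

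The centring sets which Hox genes count as lower. After loess the mean log2 ratio of the spike-in controls was -0.78, -0.64 and -0.26 in MUT pools 1 to 3. In WT pools 1 to 3 it was -0.07, 0.31 and 0.94, so it also varied within the groups. This spread enters the SE of every difference centred on these controls. With spike-in controls after loess the median of all probes moved by 0.95, so that 98.9% of called probes were higher, against 44.2% in the main setting. In that setting 16 Hox genes were called higher and 0 lower, with Hoxc4 at 2.54, Hoxb9 at 0.04 and Hoxd3 at -0.10. With each array centred on its median the median of all probes moved by 0.23, and 3 Hox genes were called lower. The arrays also lay in different rows of the slide: row 1 held the 3 MUT pools together with WT pool 1, while the other WT pools were in row 2. With slide row as a block, which compares the MUT pools with WT pool 1 alone, 6 Hox genes were called higher and 2 lower (Hoxd3 and Hoxd8). Hoxc6 then differed by 1.23 and Hoxc4 by 1.41, and the HoxB genes were no longer called. This block also leaves fewer arrays to the comparison, and the part of the row itself was not tested. Hoxa11, Hoxc4, Hoxc6, Hoxc9 and Hoxc10 kept call and direction in all 18 alternatives.

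Cell type markers shifted widely between the same pools, and their counts are read against the 14.0% higher and 18.8% lower of all tested genes. All 12 tested markers of ureteric trunk and collecting duct, the sorted type, fell (median -1.69, pool medians -1.90, -1.78 and -1.28 in MUT, against 0.01, -0.09 and 0.05 in WT). These 12 and the 8 tested principal cell markers were well above background in all WT pools. Principal cell markers all fell (8 of 8, median -1.97), as did intercalated cell markers (7 of 7, median -2.43). Markers of nephron progenitors rose (10 of 11, median 2.13), with pool medians of 2.20, 2.03 and 1.54 in MUT, against 0.07, 0.04 and -0.16 in WT. Markers of renal stroma rose (11 of 14, median 1.96), with pool medians of 1.57, 1.35 and 1.30 in MUT, against 0.12, -0.70 and -1.13 in WT. All 14 stroma markers and 10 of 11 nephron progenitor markers were well above background on all WT arrays, and Tmem100 was so on 1 of 3. Endothelial markers were lower (8 of 9 fell), with a second Kdr probe at -0.62 not called (adjusted p = 0.129). With the spike-in controls after loess the falls of Pecam1, Cdh5 and Tie1 turn positive, while the other endothelial falls stay negative. Of the leukocyte markers 7 of 8 were higher and 1 lower, Ptprc, which turns positive with these controls. Other probes of Csf1r, at 0.12 and 0.61, were not called. Of the other Cx3cr1 probes, that at 1.27 was called and that at 0.73 was not. Among ureteric tip markers 1 of 9 fell (11.1%). All 6 tested markers of loop of Henle and distal tubule were lower, 3 of 6 proximal tubule markers fell, a list whose median turns positive with spike-in controls, and 2 of 6 podocyte markers rose. The part of these shifts in the Hox differences was not tested.

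**Figure D4:**
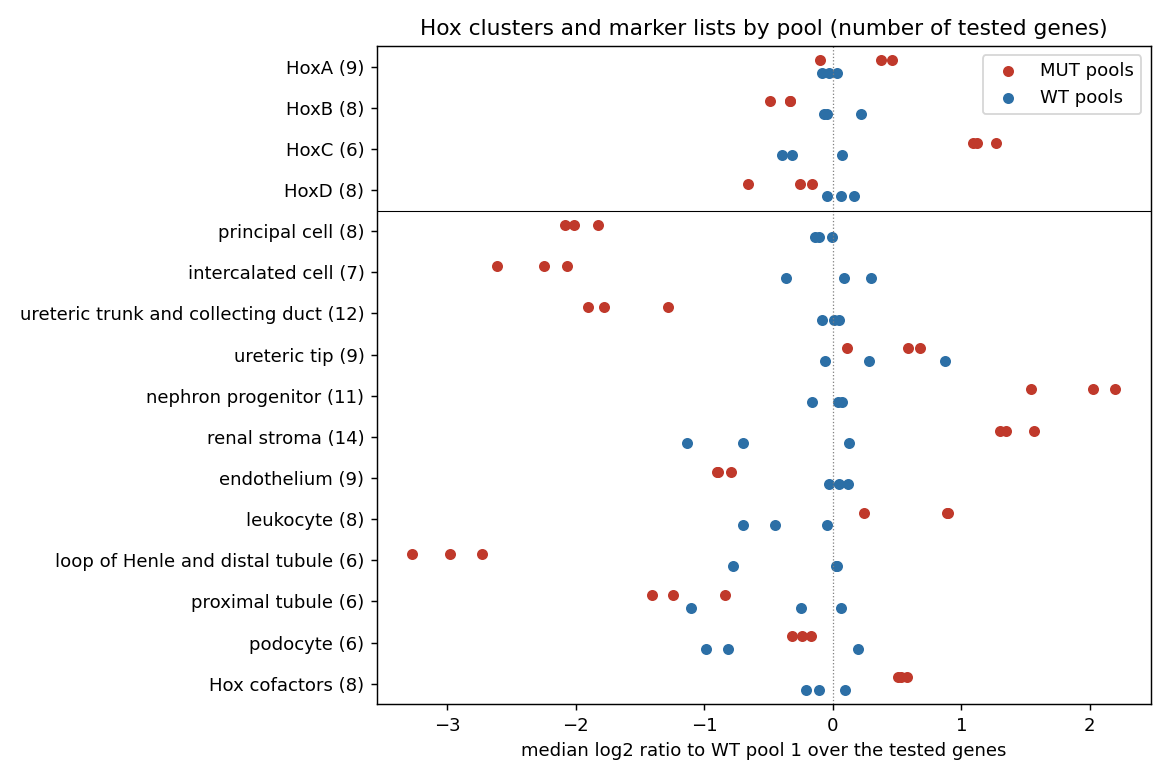
Median log2 ratio to WT pool 1 over the tested genes of each Hox cluster, marker list and the Hox cofactors, 1 point per pool with MUT above WT and the number of tested genes in brackets. HoxC medians (1.09 to 1.27 in MUT, against -0.39 to 0.07 in WT) and the nephron progenitor and stroma medians are higher in MUT pools, and the collecting duct, principal and intercalated cell medians are lower.

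Of the HOX cofactors, homeodomain proteins of the TALE class that bind DNA with HOX proteins, 6 of the 8 tested genes reported here rose, against 14.0% of all tested genes. Meis1 had log2 ratios of 2.79, 2.76 and 2.61 in MUT pools, against 0.29, -0.14 and -0.80 in WT pools, and rose by 2.94 ± 0.25 (7.66-fold, adjusted p = 0.000414). It is also on the stroma list, so it is counted there too. Meis2 rose by 1.43 ± 0.20 (adjusted p = 0.00193) and Meis3 by 1.11 ± 0.19 (adjusted p = 0.00442), with other Meis3 probes at 0.71 and 0.38. Pknox2 rose by 0.77 ± 0.14 (adjusted p = 0.00618), Pbx3 by 0.53 ± 0.11 (adjusted p = 0.011) and Pknox1 by 0.45 ± 0.11 (adjusted p = 0.0183), although a second Pknox1 probe gave 0.08. The other genes reported were not called, with Pbx2 at 0.28 and Pbx4 at -0.09.

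Among the 13 tested genes reported here of the kidney circuit around the Hox11 paralogues, 6 rose (46.2%, against 14.0% of all tested genes). Gdnf had log2 ratios of 4.19, 4.41 and 3.51 in MUT pools, against 0.03, 0.37 and -0.22 in WT pools, and rose by 3.98 ± 0.24 (15.7-fold, adjusted p = 0.000365). Six2, the factor that keeps nephron progenitors, rose by 2.56 ± 0.25 (adjusted p = 0.000548), with 1.27 from a second probe, and Itga8, an integrin of the mesenchyme, by 2.50 ± 0.22 (adjusted p = 0.000448). Wt1 rose by 2.61 ± 0.43, Osr1 by 1.39 ± 0.16 and Sall1 by 0.95 ± 0.14. Eya1 differed by 0.22 ± 0.09 (adjusted p = 0.123) and Ret, the receptor for GDNF, by -0.12 ± 0.38. Several of these genes also mark nephron progenitors, so the circuit and that marker list are not separate measurements.

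**Figure D5:**
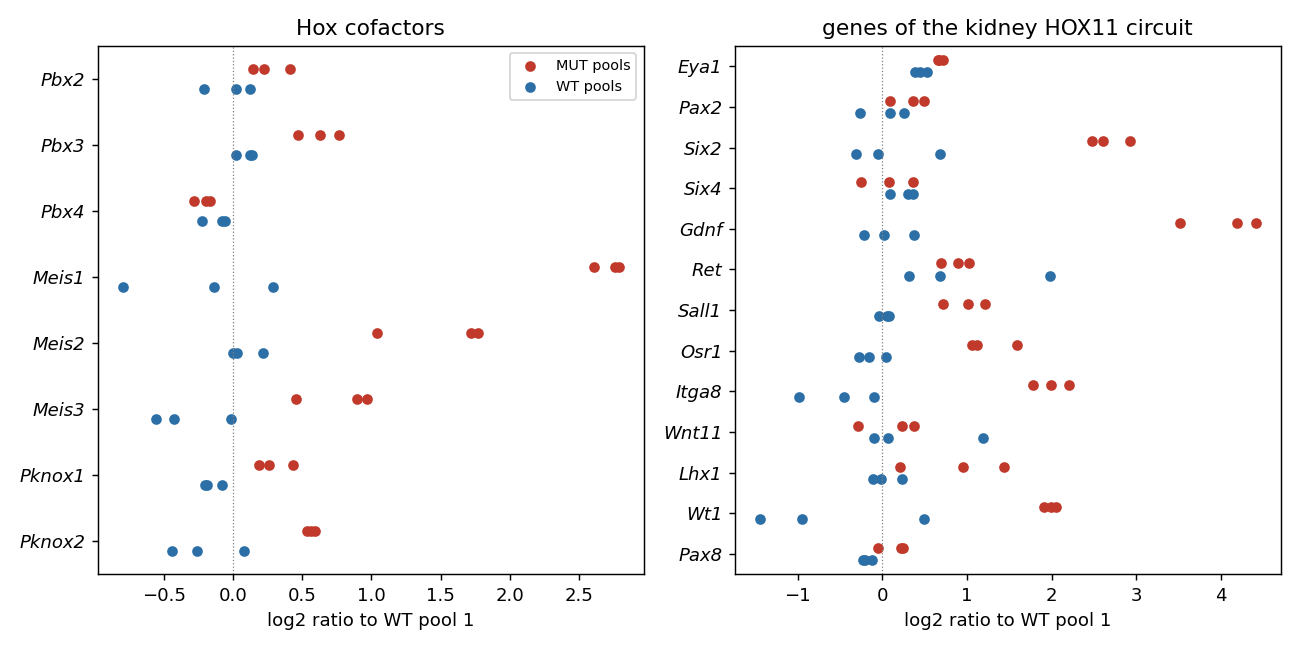
Log2 ratio to WT pool 1 by pool, MUT above WT, of 8 tested HOX cofactors on the left and 13 tested genes of the kidney circuit on the right. Meis1, Gdnf, Six2 and Itga8 show a wide gap between the groups, while Eya1, Pax2, Ret, Wnt11 and Pax8 lie close together or overlap.

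Of the genes upstream of Hox transcription, 34 of 40 listed were tested, 7 rose (20.6%, against 14.0% of all tested genes) and 1 fell (2.94%, against 18.8%), with a median of 0.05. Aldh1a2, which makes retinoic acid, rose by 1.68 ± 0.10 (3.21-fold, adjusted p = 0.000365), and Rarb, a retinoic acid receptor, by 0.83 ± 0.12 (adjusted p = 0.00252). Of the 15 tested Polycomb silencers on this list, 4 rose and 0 fell: Cbx2 rose by 0.82 ± 0.15, Ezh2 by 0.68 ± 0.14, Bmi1 by 0.54 ± 0.12 and Rnf2 by 0.48 ± 0.13. Rbbp5, of the histone methyltransferase complexes that activate Hox genes, rose by 0.39 ± 0.11. Gdf11, a signal that sets the trunk to tail step of Hox expression, fell by 0.43 on the log2 scale (SE 0.13, adjusted p = 0.0442), which turns positive with the spike-in controls.

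Genes beside the clusters are read against the 14.0% of all tested genes that were higher and the 18.8% that were lower. Beside HoxC, 1 of 7 tested neighbours rose (Hnrnpa1, 0.85) and 1 fell (Atp5g2, -0.44), with a median of 0.17. Beside HoxB, all 5 tested neighbours had negative differences (median -0.59) and 3 fell, with Skap1 at -0.59, Nfe2l1 at -0.88 and Atp5g1 at -1.22. Beside HoxD, Atp5g3 at -1.23 and Nfe2l2 at -1.01 fell among 7 tested, and beside HoxA, Cbx3 at 0.47 rose and Hibadh at -0.80 fell among 5. A second Cbx3 probe gave -0.13 (adjusted p = 0.814). With the spike-in controls the differences of Atp5g2, Skap1, Nfe2l1 and Hibadh turn positive. Of 13 noncoding RNAs listed in the clusters, Hoxa11os and Hoxd3os1 were matched by name and tested, and Hoxd3os1 differed by -0.44 ± 0.18 (adjusted p = 0.11).

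In the promoter windows from the RefSeq table of GRCm38.p6, each of 300 bases around a start, 24 windows of 22 Hox genes were found. AGGTCA, on either strand, occurred in 29.2% of them (7 windows), against 16.3% of all 32851 windows. TTTATG was in 20.8% (5 windows), against 11.9%. TGATNNAT was found in 16.7% (4 windows), against 8.85%, and TAATTA in 8.33% (2 windows), against 5.29%. TGACAG, the MEIS motif, was in 8.33% (2 windows), against 19.2%, so these shares rest on few windows. Motifs can overlap each other, as in the Hoxd3 window, and a match is a description of the letters only. The windows of Hoxa11 and Hoxd12, which rose, held no match to these motifs and are not shown. The median share of G and C was 57.7%, against 52.7% over all windows.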

How the data were processed

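Expression in 3 MUT and 3 WT pools was measured on 6 two-colour Agilent arrays, with 0.5 µg of total RNA per labelling and no dye swap. The authors scanned the arrays and deposited spot intensity, from which the median signals and local backgrounds of both dyes were taken. Agilent Feature Extraction (version 10.7.3.1) is named in the submitters' processing notes. The deposited value table holds the scanner software's log10 ratio of Cy5 over Cy3, rounded: it differed from the scanner files by at most 0.00499, and each column had a median of 0. That ratio served as an alternative. The arrays shared 1 slide and 1 scan session, per the file headers.

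Here normexp (offset 50) was followed by loess within arrays, with control spots at weight 0, to give log2 ratios. The offset makes folds of dim probes too small. Outlier-flagged spots (1194 on any array) were dropped, no spot was saturated, and spots of a probe were averaged. Probes entered the test if their Cy5 signal passed the background flag in all 3 pools of MUT or of WT. The test was lmFit and eBayes of limma 3.58.1 in R 4.3.3, with Benjamini-Hochberg adjustment over 29003 probes. The brightest tested probe stood for its gene. RefSeq accessions were matched to the GRCm38.p6 table (27509 probes of 20887 genes). The file headers name another assembly, so the coordinates printed are those of the RefSeq promoter table. Figures used matplotlib 3.10.9, and the test was checked on simulated data.

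The 38 members, the gene lists and the alternatives were chosen with earlier results of these data known. All members are named, with the called genes of the cofactor, upstream, neighbour and kidney circuit lists. Some list genes are not reported here, and the counts of the cofactor and kidney circuit lists leave them out. The labels state no pairing, so the main test did not take the pool numbers as pairs, and a block for pool number was an alternative. Correlations of deviations from the group means between pools of the same number were 0.143, 0.0723 and 0.197. For each MUT pool this was the highest of its correlations with the WT pools.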

Additional observations from a re-analysis of the deposited data

How the results depend on the processing

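Among 18 alternatives, the count of HoxC genes called higher stayed within 1.5 times its value of 5. With the arrays set to spike-in controls after loess or without loess, 16 and 16 Hox genes were called higher and 0 and 0 lower. HoxA then had 7 and 7 higher, HoxB and HoxD had 0 lower in both, and 18936 and 16644 probes were called. Under these 2 settings the called differences of Hoxb4 (0.41 and 0.39), Hoxb7 (0.26 and 0.27), Hoxb8 (0.0758 and 0.0326), Hoxb9 (0.0426 and 0.00729) and Hoxd4 (0.16 and 0.11) changed sign. With median centring 3 Hox genes were called lower, 0 of them HoxB genes. With slide row as a block 6 Hox genes were called higher and 2 lower, with 1 HoxA gene higher, 0 HoxB and 2 HoxD genes lower, and 2194 probes called. The cause was not tested.

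Leaving out 1 pool gave 7 to 13 Hox genes higher and 6 to 9 lower. It gave 1 to 5 HoxA genes higher (1 without WT pool 3), 3 to 5 HoxB lower, 5 to 6 HoxC higher and 3 to 4 HoxD lower, with 3831 to 9536 probes called. The lowest count of probes came without WT pool 3 and the highest without MUT pool 1. Leaving out WT pool 1 gave 4890. With the pool number as a replicate block 7247 probes and 16 of the 18 called Hox genes were called, and Hoxa5 (adjusted p = 0.0525) and Hoxd4 (0.0659) were not. Each MUT pool correlated best with the WT pool of its own number. The other settings kept 15 to 18 of the 18 calls. Signal near background limits Hoxc5, Hoxc8 and Hoxd12 in WT pools.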
